A study of Mus musculus with 6 samples.

Results

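The BCL2 family genes that set the survival of B cells were followed in splenic B cells of mice without the tetraspanin CD37 and of their wild-type littermates. The group was chosen by name and held 10 genes, the antiapoptotic members Bcl2, Bcl2l1 and Mcl1, the effectors Bax and Bak1, and the BH3-only members Bcl2l11, Bid, Bbc3, Pmaip1 and Bmf. On the array, 9 of the 10 could be read from a probe set that named a single gene, out of 19935 genes measured in all. Bax was not analysed here, because the annotation used held no probe set that named it alone. RNA came from CD43-, B220+ splenic B cells of 3 wild-type (WT) mice and 3 Cd37-/- mice (CD37KO), all C57BL/6J littermates that the labels give as 3 months old, with 1 array per mouse. The study's methods give 4 to 6 months for mice used as a source of B cells. No mouse was treated, and both groups went through the same isolation, in which CD43+ cells were removed and B220 served to check purity. In the Cd37-/- mice the gene is missing from every cell and not from B cells alone, so the comparison holds B cells that matured in an animal without CD37. It asked whether the transcripts that decide between survival and death of a mature B cell differed between the genotypes.

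Proteins of the BCL2 family meet at the outer mitochondrial membrane. BAX and BAK1 open pores in that membrane, which releases cytochrome c and starts the caspases. BCL2, BCL-XL (the long product of Bcl2l1) and MCL1 hold BAX and BAK1 back, and the BH3-only proteins free or activate them. In B cells, BIM (the product of Bcl2l11) is needed for the deletion of self-reactive cells and limits the number of mature B cells, while BCL2 and MCL1 keep resting and activated B cells alive. Much of the control of these proteins lies in phosphorylation, binding and degradation, which an RNA array does not read.

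Values are the deposited log2 signals of each gene's brightest probe set, so a difference of 1 is a doubling, and because probes differ in brightness the level of a gene was compared only with its own level in other arrays. Background was set by 1015 olfactory receptor genes, which B cells are not known to use: 95% of them had a mean below 5.77, and a gene above this level was called above background. All 6 arrays followed their labels for the deleted gene: Cd37 read 11.99, 11.83 and 12.08 in the WT arrays and 8.15, 8.17 and 8.17 in the CD37KO arrays, a difference of -3.80 (SE 0.076, adjusted p = 1.37e-07, limma). The Cd37 signal stayed above background in all 6 arrays, those of CD37KO included, so a signal above this level does not by itself show an intact transcript. The source of the remaining Cd37 signal was not tested. The 12 mature B cell markers other than Cd37 were above background in every array, and their mean lay at 11.51 to 11.59 in WT and 11.53 to 11.56 in CD37KO. Markers of other cells did move with genotype. The mean of 16 neutrophil markers was 6.13 to 6.34 in WT and 6.58 to 7.85 in CD37KO, without overlap, and 14 of the 16 were higher at an unadjusted p under 0.05, none after adjustment. Means of the 9 dendritic cell markers (6.61 to 6.65 in WT, 6.50 to 6.59 in CD37KO) and of the 10 stromal and endothelial markers (6.28 to 6.41 and 6.09 to 6.22) lay lower in CD37KO without overlap. In every array 3 of the dendritic and 4 of the stromal and endothelial markers were below background. At an unadjusted p under 0.05 (limma) 2 and 3 of them were lower, none after adjustment. The dendritic markers Flt3 and Zbtb46 differed by 0.026 and -0.002. The 18 macrophage and monocyte markers overlapped, at 8.36 to 9.12 and 8.06 to 9.23. So did the 11 T cell markers, at 5.69 to 5.76 and 5.64 to 5.70, of which 4 were above background in every array, Cd3e and Cd4 among them, and 4 below it in every array, Cd3d and Cd3g among them. In RNA of a whole cell fraction, fewer cells of a type and less RNA per cell cannot be told apart.

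None of the 9 measured members passed an adjusted p of 0.05 for a difference between the genotypes (limma, Benjamini-Hochberg over all 19935 genes), against 11 genes or 0.0552% of all genes. The adjusted p of the members ran from 0.801 to 0.992. At an unadjusted p under 0.05, 1 of the 9 was higher in CD37KO and 0 were lower, where 2.96% of all genes were higher and 2.99% lower. Differences of the members ran from -0.13 to 0.19 on the log2 scale with a median of 0.011, and 5 of the 9 were above 0. Over all genes the median difference was -0.019 and 41.8% were above 0. Among the 9874 genes above background in all 6 arrays, which make up 49.5% of all, the median was 0.017 and 56.97% were above 0, close to the members. The members were measured about as tightly as other genes: their pooled SD within a genotype had a median of 0.095, against 0.10 for all genes above background. Of the 9 members, 8 were above background in all 6 arrays.

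**Figure D1:**
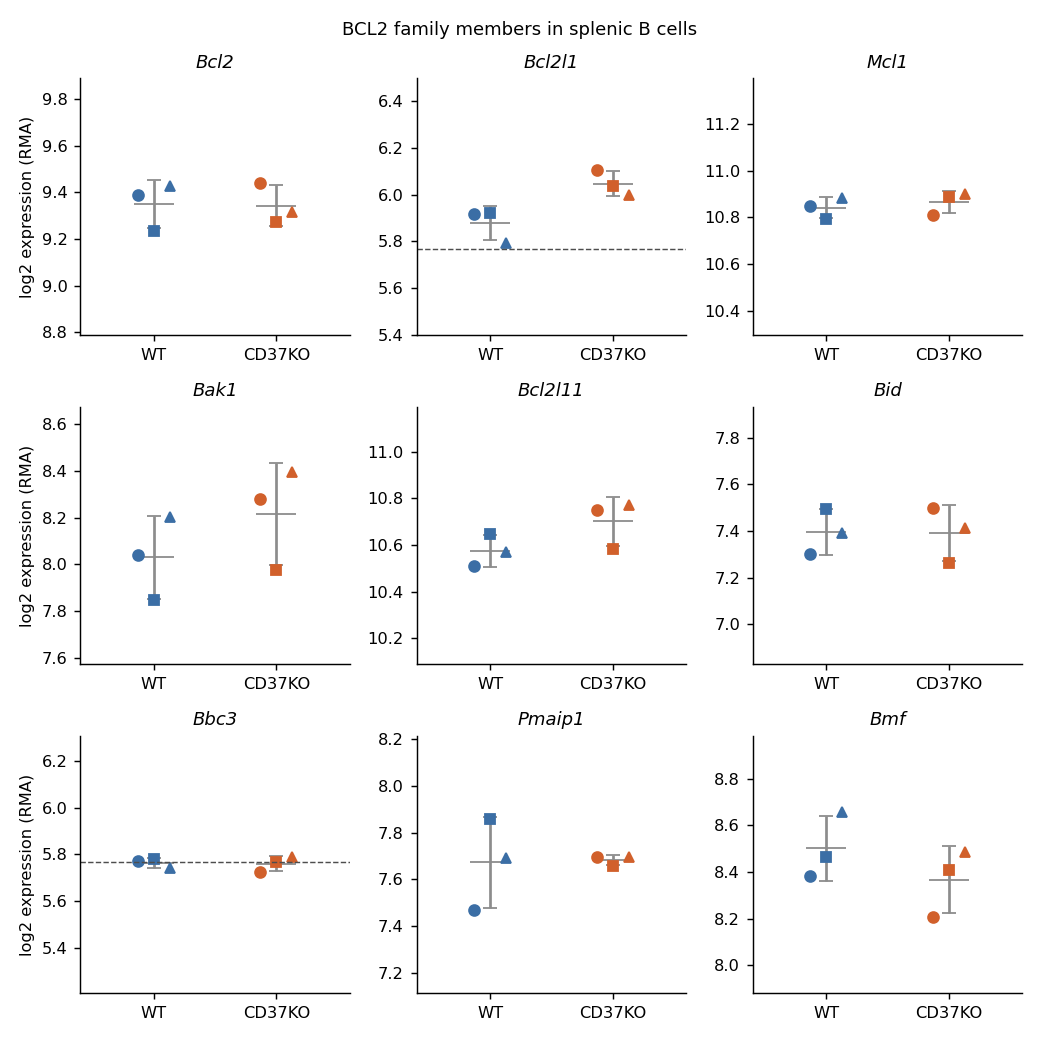
Log2 signal of the 9 measured members in each of the 3 WT and 3 CD37KO arrays, 1 panel per gene, each with its own axis range, with a point for each array (circle, square and triangle for replicates 1, 2 and 3), grey bars for each group's mean and SD, and a dashed line at the background level of 5.77 where it falls in the panel. The CD37KO points lie above all WT points for Bcl2l1 alone, and for the other 8 members the genotypes overlap.

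The 3 antiapoptotic members were above background in every array of both genotypes. Bcl2 (Entrez Gene 12043, chromosome 1), the founding antiapoptotic member, read 9.39, 9.24 and 9.43 in WT and 9.44, 9.27 and 9.32 in CD37KO. The groups overlapped, with CD37KO higher in 5 of the 9 possible pairs of a WT and a CD37KO array. Means were 9.35 ± 0.10 and 9.34 ± 0.088 (SD, n = 3 each), and limma gave a difference of -0.0085 (SE 0.077, 95% interval -0.19 to 0.17, adjusted p = 0.985).

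Mcl1 (Entrez Gene 17210, chromosome 3) encodes a short-lived antiapoptotic protein that B cells need at most stages. It read 10.85, 10.79 and 10.88 in WT and 10.81, 10.89 and 10.90 in CD37KO. All 6 values lay within 0.11 of each other, the groups overlapped, and the difference was 0.025 (SE 0.061, 95% interval -0.12 to 0.17, adjusted p = 0.943, limma).

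Bcl2l1 (Entrez Gene 12048, chromosome 2), which encodes BCL-XL, read 5.92, 5.92 and 5.79 in WT and 6.10, 6.04 and 6.00 in CD37KO. The groups did not overlap and CD37KO was higher, as for 4.33% of all genes, and every array was above background, the lowest by little. No member had all CD37KO values below all WT values, a pattern found in 7.57% of all genes. Among the 9874 genes above background, 689 were higher and 456 lower in CD37KO without overlap. Means were 5.88 ± 0.073 and 6.05 ± 0.053 (SD, n = 3 each). The difference was 0.17 (SE 0.066, 95% interval 0.018 to 0.32), a 1.12-fold higher signal with an interval of 1.01 to 1.25. Its p was 0.0326 before and 0.801 after adjustment (limma), and the exact two-sided permutation test gave 0.10, the smallest p that 3 arrays against 3 allow. The unadjusted p was 0.0522 without WT replicate 1, 0.114 without WT replicate 3, 0.104 without CD37KO replicate 1 and 0.0544 without CD37KO replicate 2. The neutrophil marker mean also separated the genotypes in this direction, from 6.13 to 6.34 in WT to 6.58 to 7.85 in CD37KO, and was highest in CD37KO replicate 1, as Bcl2l1 was, but CD37KO replicate 3 was above replicate 2 for these markers (7.17 and 6.58) and below it for Bcl2l1. The part of such cells in the Bcl2l1 signal was not tested.

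Of the 2 effectors, Bak1 was measured. Bak1 (Entrez Gene 12018, chromosome 17) encodes the effector that sits in the mitochondrial membrane of living cells, and read 8.04, 7.85 and 8.20 in WT and 8.28, 7.97 and 8.40 in CD37KO. CD37KO was higher in 7 of the 9 pairs, with CD37KO replicate 2 among the WT arrays. Means were 8.03 ± 0.18 and 8.22 ± 0.22 (SD, n = 3 each), the widest spread of the 9 members, and the difference was 0.19 (SE 0.13, 95% interval -0.10 to 0.47, adjusted p = 0.81, limma). Single arrays moved this value: it was 0.31 without CD37KO replicate 2, with an unadjusted p of 0.0232 (limma), and 0.096 without either WT replicate 2 or CD37KO replicate 3, with an unadjusted p of 0.475 and 0.486.

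Bax lies on chromosome 7, as does Cd37, and 15 measured genes stand between them in the gene order of GRCm38.p6. Of those 15 genes, 1 was higher and 2 were lower in CD37KO at an unadjusted p under 0.05, and 1 passed after adjustment (limma), where over all genes 5.95% and 0.0552% did. No value for Bax itself follows from these neighbours. Bbc3, also on chromosome 7, stands 489 measured genes away from Cd37.

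BH3-only members carry the death signal to the membrane. Bcl2l11 (Entrez Gene 12125, chromosome 2), which encodes BIM, read 10.51, 10.65 and 10.57 in WT and 10.75, 10.58 and 10.77 in CD37KO. CD37KO was higher in 8 of the 9 pairs, and only the pair of CD37KO replicate 2 and WT replicate 2 went the other way. Means were 10.58 ± 0.070 and 10.70 ± 0.10 (SD, n = 3 each), with a difference of 0.13 (SE 0.075, 95% interval -0.045 to 0.30, adjusted p = 0.801, limma). Over the 6 fits that left out an array the difference ran from 0.091 without CD37KO replicate 3 to 0.19 without CD37KO replicate 2, with an unadjusted p of 0.32 and 0.035 (limma), and none of the 6 but the last gave an unadjusted p under 0.05. The 3 arrays with the highest Bcl2l11 signal, CD37KO replicates 3 and 1 and WT replicate 2, were also the 3 with the highest mean of 8 germinal centre B cell markers, at 8.13, 7.99 and 7.99, while the other 3 arrays read 7.23 to 7.49. Differences between the genotypes within this list ran from -0.085 for Bcl6 to 0.52 for Top2a. Top2a and Mki67, both in the list, mark dividing cells in general. The part of germinal centre B cells in the Bcl2l11 signal was not tested.

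Bbc3 (Entrez Gene 170770, chromosome 7) encodes PUMA, which is induced by p53 and by FOXO factors. It read 5.77, 5.78 and 5.74 in WT and 5.72, 5.77 and 5.79 in CD37KO, was above background in 4 of the 6 arrays, and gave a difference of -0.0036 (95% interval -0.14 to 0.13, adjusted p = 0.991, limma). At this level the array has little room to show a fall.

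FOXO transcription factors are known to switch on Bcl2l11 and Bbc3 when survival signals through AKT are low. The 250 bases before the start sites of 9 members were therefore searched for the forkhead core motif GTAAACA on both strands (TGTTTAC on the other). Pmaip1 was left out of this search, so whether its promoter holds the motif was not tested. Of the 9 members searched, Bax among them, 2 held the motif in a RefSeq promoter. These were Bcl2l11 and Bbc3, each in a single one of its start sites. Among all 27025 genes with such a promoter, counted with no chromosome left out, 3.537% held it. The count of members, without Pmaip1, did not follow that rule, so the shares are not strictly comparable. Both windows are shown because they held the motif. They are written 5′ to 3′ on the plus strand of GRCm38.p6, with the motif in capitals, at bases -227 to -221 of chr2:128125788-128126037 for Bcl2l11 and at -167 to -161 of chr7:16310011-16310260 for Bbc3, counted from the start site.
Bcl2l11: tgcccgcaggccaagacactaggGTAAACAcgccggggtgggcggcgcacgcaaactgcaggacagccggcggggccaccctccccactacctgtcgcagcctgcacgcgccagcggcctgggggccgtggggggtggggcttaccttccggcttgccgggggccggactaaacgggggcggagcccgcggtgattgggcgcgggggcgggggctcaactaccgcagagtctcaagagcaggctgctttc
Bbc3: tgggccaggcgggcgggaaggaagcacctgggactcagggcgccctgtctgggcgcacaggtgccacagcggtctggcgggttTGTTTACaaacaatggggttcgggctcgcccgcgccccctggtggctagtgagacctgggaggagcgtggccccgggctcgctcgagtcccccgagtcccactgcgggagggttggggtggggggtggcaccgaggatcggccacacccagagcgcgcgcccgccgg
A match of 7 letters is a description and not a site of binding. The signals of the factors themselves overlapped between genotypes: Foxo1 had means of 11.06 in WT and 11.00 in CD37KO (adjusted p = 0.88, limma), and Foxo3 had means of 8.16 and 8.28 (adjusted p = 0.81, limma).

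Bid (Entrez Gene 12122, chromosome 6), the link from death receptors to mitochondria, read 7.30, 7.50 and 7.39 in WT and 7.50, 7.26 and 7.41 in CD37KO. The groups covered almost the same range, and the difference was -0.0046 (SE 0.083, 95% interval -0.19 to 0.19, adjusted p = 0.992, limma).

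Pmaip1 (Entrez Gene 58801, chromosome 18) encodes NOXA, which binds MCL1. It read 7.47, 7.86 and 7.69 in WT and 7.69, 7.66 and 7.70 in CD37KO, so the CD37KO arrays lay close together inside the WT range. The difference was 0.011 (SE 0.097, 95% interval -0.21 to 0.23, adjusted p = 0.985, limma).

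Bmf (Entrez Gene 171543, chromosome 2), a BH3-only member that limits the number of B cells, read 8.38, 8.46 and 8.66 in WT and 8.21, 8.41 and 8.49 in CD37KO. It had the lowest difference of the 9 members. CD37KO was higher in 3 of the 9 pairs, means were 8.50 ± 0.14 and 8.37 ± 0.14 (SD, n = 3 each), and the difference was -0.13 (SE 0.098, 95% interval -0.36 to 0.090, adjusted p = 0.814, limma). It was -0.057 without WT replicate 3 and -0.054 without CD37KO replicate 1.

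**Figure D2:**
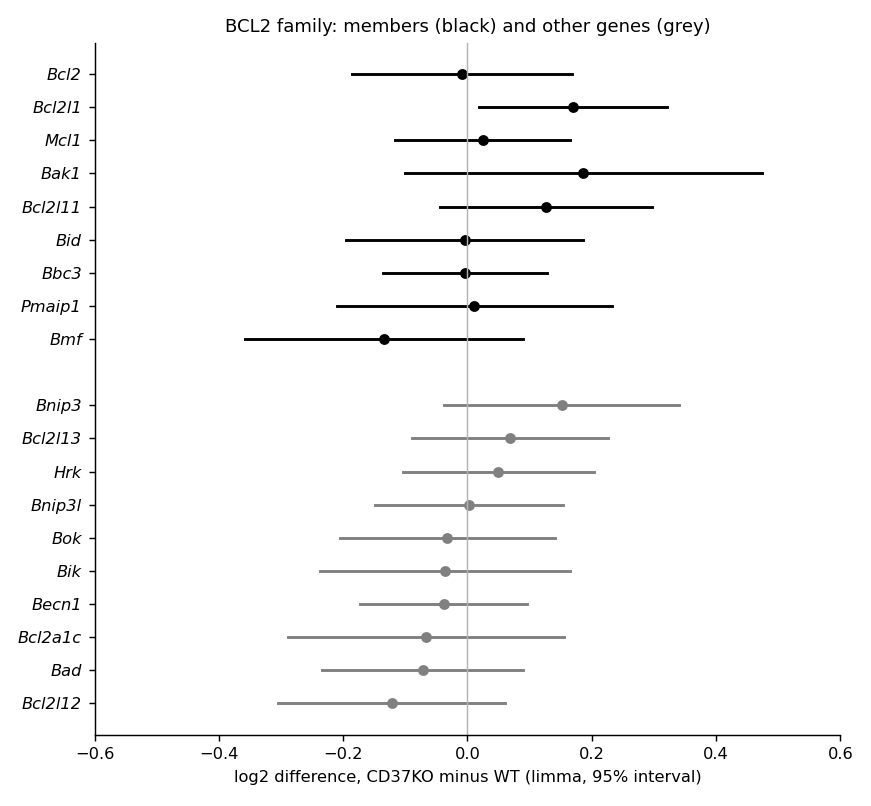
Difference CD37KO minus WT on the log2 scale for the 9 measured members (black) and the 10 other family genes above background in at least 1 array (grey), as a point with limma's 95% interval, and a vertical line at 0. The interval of Bcl2l1, from 0.018 to 0.32, leaves out 0, and all other intervals drawn include it.

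The intervals bound what the arrays could have missed. Taken over the 9 members they reach from -0.36 for Bmf to 0.47 for Bak1, so a fall of more than 1.28-fold or a rise of more than 1.39-fold in signal lies outside the interval of every member. For Mcl1 and Bcl2 the intervals ran from -0.12 to 0.17 and from -0.19 to 0.17. RMA draws low signals together, so near background, where Bbc3 and Bcl2l1 lie, any difference in RNA may be larger than that in signal. Whether this held for either gene was not tested.

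Arrays of the same genotype were not alike across the family. CD37KO replicate 3 held the highest value of 4 members and CD37KO replicate 1 that of 3, while WT replicate 2 held the lowest value of 3. CD37KO replicate 1 was the highest array for Bcl2, Bcl2l1 and Bid and the lowest for Bbc3 and Bmf. CD37KO replicates 1 and 3 also had the highest means of the neutrophil markers (7.85 and 7.17), of the macrophage and monocyte markers (9.19 and 9.23) and of the germinal centre markers (7.99 and 8.13), with CD37KO replicate 2 at 6.58, 8.06 and 7.34. The match was not complete: WT replicate 1 read 9.12 for the macrophage and monocyte markers and held no member's highest value, and WT replicate 2 read 7.99 for the germinal centre markers. The part of other cells in the order of the arrays was not tested.

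**Figure D3:**
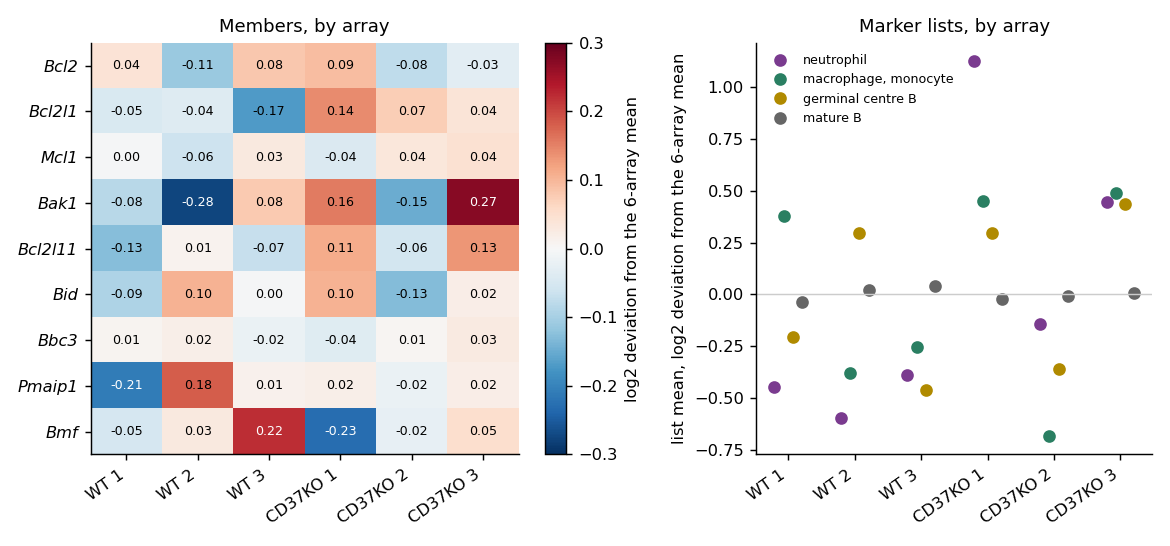
Left, deviation of each of the 9 measured members from its mean over the 6 arrays, by array, on the log2 scale, with red above and blue below the mean. Right, the same deviation of the mean of 4 marker lists, in which CD37KO replicates 1 and 3 stand high for neutrophil, macrophage and germinal centre markers and the mature B cell markers stay near 0.

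The rest of the family was read from a list of 17 further genes, of which 14 were measured and 7 were above background in every array. None of the 14 reached an unadjusted p under 0.05 in either direction, against 5.95% of all genes, and their differences ran from -0.12 to 0.15 with a median of -0.037. Bcl2l2, Bcl2l10, Bcl2l14 and Bcl2l15 were below background in all 6 arrays. Bnip3, a mitochondrial protein induced by low oxygen, was the highest of the 14 at 0.15 (adjusted p = 0.801, limma), with CD37KO higher in 8 of the 9 pairs. A dimmer Bnip3 probe set read 6.83, 6.85 and 6.55 in WT and 6.87, 6.62 and 7.20 in CD37KO, with overlap. The related gene Bnip3l, which acts in the removal of mitochondria, differed by 0.0022. Bcl2l12, which stands 20 measured genes from Cd37, was the lowest at -0.12 (adjusted p = 0.809, limma). Of the 19 measured genes between Bcl2l12 and Cd37, 3 were higher and 5 lower at an unadjusted p under 0.05, beside 2.96% and 2.99% of all genes. Differences of the others above background in at least 1 array were 0.068 for Bcl2l13, 0.050 for Hrk, -0.032 for Bok, -0.036 for Bik, -0.038 for Becn1 and -0.072 for Bad.

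A1, the antiapoptotic protein that B cells make on activation, has several gene copies in the mouse. Bcl2a1c had a probe set of its own, with WT values of 9.20, 9.17 and 9.51 and CD37KO values of 9.27, 9.16 and 9.25, a difference of -0.067 (adjusted p = 0.892, limma). Another 3 probe sets named all 4 copies at once and could not be assigned to one of them, and their differences were 0.0010, -0.076 and -0.047, given without a test. Probes can bind near-identical copies, so the value of Bcl2a1c is uncertain too.

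After the membrane has opened, cytochrome c and APAF1 activate caspase 9, and inhibitors such as XIAP hold the caspases back. A list of 32 genes held these steps and further genes outside them, such as Casp8, Bag1, Bag3, the Vdac genes and Opa1. Of the 32, 29 were measured and 26 were above background in all arrays. Bag3 alone was higher in CD37KO at an unadjusted p under 0.05 (2.96% of all genes were), none was lower (2.99% of all genes), and none passed after adjustment. The list's median difference was 0.017, and 4 of the 29 did not overlap, all of them higher in CD37KO, against 4.33% of all genes and 689 of the 9874 genes above background. The 4 were Bag3, Cycs, Vdac1 and Vdac3. Cycs, which encodes cytochrome c, differed by 0.15 (adjusted p = 0.801, limma), Vdac1 by 0.15 and Vdac3 by 0.11 (both adjusted p = 0.801, limma). Apaf1 differed by -0.015 (adjusted p = 0.977), Casp9 by -0.11 (adjusted p = 0.801) and Xiap by 0.0059 (adjusted p = 0.986, all limma).

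Bag3, a co-chaperone that binds HSP70 and BCL2, is induced by stress to proteins. It read 6.56, 6.44 and 6.87 in WT and 7.35, 6.93 and 8.13 in CD37KO. The groups did not overlap, with CD37KO replicate 3 far above its group, and the difference was 0.85 (SE 0.27, 95% interval 0.24 to 1.46, unadjusted p = 0.0121, adjusted p = 0.801, limma). Without each array in turn the difference ran from 0.52 to 1.12, with an unadjusted p of 0.00113 to 0.0413.

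The genes that act on the members, among them p53 and FOXO partners, kinases and ubiquitin ligases, numbered 38, of which 32 were measured and 30 were above background in every array. Rela was higher and Mdm4 lower at an unadjusted p under 0.05, beside 2.96% and 2.99% of all genes, none passed after adjustment, and the median difference was 0.019. Mdm4, an inhibitor of p53, read 10.45, 10.58 and 10.39 in WT and 10.31, 10.31 and 10.12 in CD37KO. Every CD37KO array lay below every WT array, and the difference was -0.23 (SE 0.080, 95% interval -0.41 to -0.043, unadjusted p = 0.0215, adjusted p = 0.801, limma). Without WT replicate 2 or CD37KO replicate 3 it was no longer under an unadjusted p of 0.05, and over the 6 fits that left out an array this p reached 0.0823. Its partner Mdm2 differed by -0.039 (adjusted p = 0.926, limma).

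Rela, a subunit of NF-κB, which drives Bcl2l1 and the A1 genes, read 9.58, 9.48 and 9.61 in WT and 9.77, 9.66 and 9.71 in CD37KO. All CD37KO arrays were higher, by 0.15 between the means (SE 0.067, 95% interval 0.0024 to 0.31, unadjusted p = 0.0473, adjusted p = 0.801, limma). The unadjusted p stayed under 0.05 in 2 of the 6 fits without an array, those without WT replicate 3 and without CD37KO replicate 2, and reached 0.14. Rel, another NF-κB subunit, overlapped between the genotypes and differed by 0.012 (adjusted p = 0.973, limma).

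Bax, Bbc3 and Pmaip1 are also targets of p53, and of 23 further p53 targets 22 were measured. Of these, 2 were higher at an unadjusted p under 0.05 (2.96% of all genes), 0 were lower (2.99%) and none passed after adjustment, with a median difference of 0.044. Ddit4, an inhibitor of mTORC1 that also answers to glucocorticoids and low oxygen, read 7.40, 7.12 and 7.40 in WT and 7.91, 7.40 and 8.08 in CD37KO. CD37KO replicate 2 fell at the top of the WT range and CD37KO was higher in 8 of the 9 pairs, with a difference of 0.49 (SE 0.16, 95% interval 0.11 to 0.87, unadjusted p = 0.0175, adjusted p = 0.801, limma). The unadjusted p was above 0.05 in 3 of the 6 fits without an array, with WT replicate 2, CD37KO replicate 1 or 3 left out, and reached 0.0663.

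Pidd1, which activates caspase 2, read 6.47, 6.55 and 6.47 in WT and 6.62, 6.61 and 6.73 in CD37KO. The groups did not overlap, and the difference was 0.15 (SE 0.064, 95% interval 0.0062 to 0.30, unadjusted p = 0.0429, adjusted p = 0.801, limma). The unadjusted p stayed under 0.05 in 2 of the 6 fits without an array, those without WT replicate 2 and without CD37KO replicate 2, and reached 0.144.

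**Figure D4:**
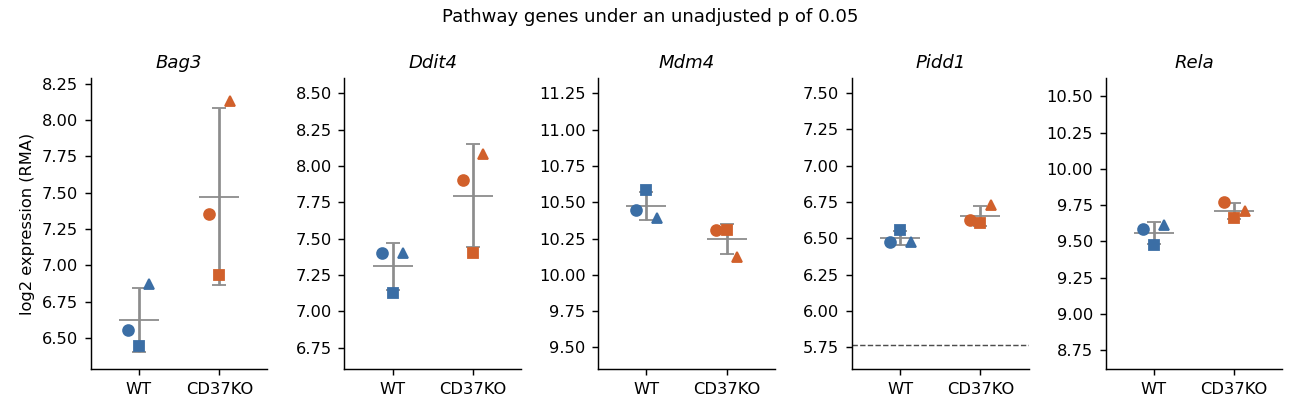
Log2 signal by array of the 5 genes of the caspase pathway, regulator and p53 target lists at an unadjusted p under 0.05. Circle, square and triangle stand for replicates 1, 2 and 3, and grey bars for the mean and SD of the 3 arrays of each group. Each gene has its own axis range, and a dashed line marks the background level of 5.77 where it falls in the panel. Bag3, Ddit4, Pidd1 and Rela had higher means in CD37KO and Mdm4 a lower one, and the groups overlap for Ddit4 alone.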

How the data were processed

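RNA of 3 WT and 3 CD37KO mice was hybridised to Affymetrix mouse gene arrays, and the log2 values per probe set are those the authors deposited. The submitters' processing notes name RMA (background correction, normalization between arrays, summary of probes) and the build mm8, and give no software version. Samples were grouped by the labels, and 0 value columns were left unmapped. Of 35361 probe sets, 21780 named a single gene and were used, 1605 named several genes and 11976 were not named. The brightest probe set per gene gave 19935 genes, and no filter on dim genes was applied. The genotypes were set against each other by limma 3.58.1 (R 4.3.3), with linear models, moderated by eBayes, two-sided p-values adjusted after Benjamini and Hochberg for all genes, and a threshold of 0.05. The fit was tested on simulated data. No value was taken from the raw scans. The number of arrays limits the precision. Promoters are RefSeq windows of GRCm38.p6. Named genes were all members, family genes above background in any array, and up to 5 genes of each other list with the smallest unadjusted p under 0.05. A few further genes of these lists were chosen after their values were seen. The members and lists were chosen with earlier results of these data known. The closing section gives the effect of 14 alternatives.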

Additional observations from a re-analysis of the deposited data

How the results depend on the processing

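None of the 9 measured members passed an adjusted p of 0.05 in the main analysis or in any of the 14 alternatives (limma or ordinary least squares). Their count at an unadjusted p under 0.05 was 1, and became 0 with eBayes with trend and robust, 3 with array weights, 2 with the replicate block and 0 to 2 when each array was left out. Over all 19935 genes this count was 1186, and became 1166, 3470, 1056 and 578 to 2539 in the same settings. The median difference of the members was 0.085 with array weights and 0.0048 to 0.046 without each array. Bcl2l1 kept its direction in all 14, with an unadjusted p under 0.05 in 9. Signs of members near 0 turned: Bbc3 was 0.020 and 0.0028 after a further quantile normalization and median centring, Pmaip1 -0.046 after quantile normalization, and Bid 0.0019 with median centring and 0.085 with array weights. Without each array in turn, the values ran from -0.066 to 0.030 for Bcl2, -0.00022 to 0.052 for Mcl1, -0.058 to 0.059 for Bid, -0.018 to 0.014 for Bbc3 and -0.092 to 0.10 for Pmaip1. Unadjusted counts of the lists moved with the setting, as did that of all genes given above. All genes gave 1076 with quantile normalization, 1183 with median centring and 1163 with ordinary least squares. With only genes above background they gave 635 of 10293. Other family genes (0) gave 1 with quantile normalization, 2 with array weights and 0 to 2 without an array. Caspase pathway genes (1) gave 3 with quantile normalization, 2 with median centring, 2 with trend and robust, 0 with ordinary least squares, 6 with array weights and 1 to 4 without an array. Regulators (2) gave 1 with only genes above background, with trend and robust and with ordinary least squares, 8 with array weights and 0 to 6 without an array. Targets of p53 (2) gave 1 with quantile normalization, with only genes above background and with trend and robust, 6 with array weights and 0 to 4 without an array. Array weights gave WT replicate 1 a weight of 4.10 and the other arrays 0.46 to 1.19. Replicate numbers did not pair the arrays: deviations from the group means correlated at 0.24, 0.007 and -0.14 across genes for arrays of the same number, and the replicate block added Bak1 (unadjusted p = 0.0332, limma) to the members at an unadjusted p under 0.05. The cause of these changes was not tested.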
